A study of Mus musculus with 8 samples.

Results

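Genes of the cell division machinery were followed in embryonic mouse gonads: the cyclins, the cyclin-dependent kinases (CDKs), their inhibitors, the replication licensing factors and the mitotic kinases. Members were chosen by symbol alone, as genes with a probe set annotated to that gene only. The symbols were the lettered cyclins (Ccn), the numbered Cdk genes, the Cdkn1 and Cdkn2 inhibitors of types a and b, Mcm2 to Mcm7, Orc1 to Orc6, Plk1 to Plk4, Aurka, Aurkb, Cdc6, Cdc20, Cdc25a to Cdc25c, Cdc45, Bub1, Bub1b and Pcna. This rule gave 54 of the 8251 genes on the array: 16 cyclins, 10 Cdk genes, 4 inhibitors, 6 Mcm, 5 Orc, 4 Plk, 2 Aurora and 5 Cdc genes, Bub1 and Pcna. Among genes the rule names, Ccnb1, Cdk6, Orc3, Cdc25b and Bub1b were not analysed here. The members had 72 probe sets, 15 genes had several, and such a gene is represented by its brightest probe set on average over the 8 arrays.

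Gonads came from female and male mouse embryos, wild type (WT) or Wnt4 knock-out (KO), at embryonic day 12.5 (E12.5) or 14.5 (E14.5). Each of the 8 combinations had 1 Affymetrix MG_U74Av2 array and no replicate: WT female, KO female, WT male and KO male gonads at E12.5, and the same 4 at E14.5. Per the labels, the embryos were picked by morphology and genotyped by PCR. For strain, the Wnt4 allele and the number of embryos behind an array, the sources used here give nothing.

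A cell passes through G1, S, G2 and M phases under the control of CDKs, which act only with a cyclin partner and are held back by the CDK inhibitors. Before S phase, the origin recognition complex (Orc) and Cdc6 load the Mcm helicase onto DNA, which licenses each origin for replication, and in M phase the Polo-like and Aurora kinases, Bub1 and Cdc20 govern chromosome separation. Around these stages germ cells of the fetal ovary leave the mitotic cycle for meiosis, germ cells of the fetal testis enter a mitotic arrest, and the supporting cells of the testis go on dividing.

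Promoter sequences were examined for the motifs through which these genes are commonly switched on in S phase and in G2 and M phases. RefSeq promoter windows (GRCm38.p6, 250 bases before to 50 after the annotated start) were found for 46 of the 54 members, and 39 of them had 1 window. The motifs were the E2F site (TTTCCCGC, TTTGGCGC, TTTCGCGC or TTTGCCGC), the cell cycle homology region (CHR, TTTGAA or TTCGAA) and the CCAAT box (CCAAT), each on either strand and in any window of a gene. An E2F site stood in the windows of 10 of the 46 members (21.7%), against 2.61% of 27025 genes with a window. CHR and CCAAT stood together in 11 members (23.9%), against 8.61% of all genes. Taken alone, CCAAT stood in 67.4% of the members and 41.1% of all genes, and CHR in 28.3% and 21.7%. The 250 bases before the start are printed for 5 genes, picked after their values were seen. Ccnf, Cdc20 and Cdk1 carry CHR and CCAAT and were lower at E14.5 in both sexes. Cdc6 carries an E2F site and was lower in both. Other members with an E2F site differed: Cdkn2a was higher in both sexes, and Cdc25a, Cdk2, Mcm5 and Orc1 were called in neither. Of the 14 members with a window called lower in females, 3 carry an E2F site, and of the 4 called higher 1 does. Bub1 also carries CHR (TTCGAA) and CCAAT, its CHR letters lying after the printed bases, and went opposite ways in the sexes. Each is given 5′ to 3′ on the strand of its gene, with the motifs in capitals, and all 5 genes but Cdc6 lie on the minus strand. The windows are chr17:24251410-24251659 for Ccnf, chr4:118437344-118437593 for Cdc20, chr10:69352913-69353162 for Cdk1, chr11:98907901-98908150 for Cdc6 and chr2:127831860-127832109 for Bub1.
Ccnf: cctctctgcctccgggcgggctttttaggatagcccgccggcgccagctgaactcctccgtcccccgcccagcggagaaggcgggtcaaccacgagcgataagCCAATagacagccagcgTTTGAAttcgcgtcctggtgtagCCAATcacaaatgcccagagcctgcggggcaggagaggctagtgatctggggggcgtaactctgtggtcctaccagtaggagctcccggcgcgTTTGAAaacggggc
Cdc20: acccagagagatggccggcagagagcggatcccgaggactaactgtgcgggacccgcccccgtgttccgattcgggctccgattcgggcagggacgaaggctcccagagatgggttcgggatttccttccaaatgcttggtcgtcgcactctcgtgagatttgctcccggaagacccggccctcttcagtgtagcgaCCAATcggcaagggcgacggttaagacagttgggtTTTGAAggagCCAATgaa
Cdk1: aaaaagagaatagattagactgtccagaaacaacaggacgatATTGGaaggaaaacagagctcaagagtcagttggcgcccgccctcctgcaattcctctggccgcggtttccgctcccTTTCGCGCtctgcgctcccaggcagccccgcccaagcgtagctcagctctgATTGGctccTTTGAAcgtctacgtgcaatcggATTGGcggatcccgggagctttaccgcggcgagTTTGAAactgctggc
Cdc6: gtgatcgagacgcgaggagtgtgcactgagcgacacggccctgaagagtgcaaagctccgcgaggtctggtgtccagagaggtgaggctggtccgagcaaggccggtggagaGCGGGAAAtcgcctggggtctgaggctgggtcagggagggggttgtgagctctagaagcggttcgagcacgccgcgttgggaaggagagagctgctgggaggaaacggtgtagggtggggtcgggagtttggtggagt
Bub1: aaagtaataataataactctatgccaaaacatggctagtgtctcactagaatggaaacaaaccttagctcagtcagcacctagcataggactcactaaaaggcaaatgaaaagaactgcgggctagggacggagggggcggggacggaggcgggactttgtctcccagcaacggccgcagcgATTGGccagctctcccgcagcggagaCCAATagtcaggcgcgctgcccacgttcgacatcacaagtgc
In the Ccnf window, CHR letters began 130 and 14 bases before the start and CCAAT letters 147 and 107 bases before it. Cdc20 had CHR letters at 18 bases and CCAAT letters at 53 and 8 bases. Cdk1 had all 3 motifs: the E2F letters at 131 bases, CHR at 71 and 15, and CCAAT at 208, 80 and 48. The Cdc6 window held E2F letters at 138 bases, and the printed Bub1 window held CCAAT at 68 and 42 bases. These are matches of letters and not measured binding sites.

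Levels are log2 signals, shifted so that all arrays share their median, and stage differences are E14.5 minus E12.5 on that scale. Where a pair of values is given for a stage, WT comes before KO. Errors are standard errors (SE) of a limma fit to all 8 arrays, in which the WT and KO pairs of a sex stand in for replicates. A gene is called when its adjusted p is under 0.05 after Benjamini-Hochberg adjustment over 8452 fitted probe sets. Values under a floor of 6.99 were raised to it, so a difference that meets the floor is a lower bound. Of the 54 members 49 were fitted. Ccna1, Ccne2, Cdkn1b, Cdkn2b and Mcm6 were above the floor on fewer than 2 arrays and had no test.

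Some properties of the arrays bear on what follows. The 2 E14.5 male arrays correlated with the other 6 at Pearson r of 0.883 to 0.907, while those 6 correlated among themselves at 0.979 or more, and centring added 0.43 and 0.47 to the E14.5 males. The male stage effect has no value without these arrays, so what is particular to them and what belongs to the stage in males cannot be told apart. Wnt4 itself read 10.19 and 8.59 in E12.5 females (WT, KO), 9.45 and 8.32 in E14.5 females, 9.26 and 8.34 in E12.5 males and 9.42 and 9.19 in E14.5 males. It was lower on the KO array of each pair, though only a little at E14.5 in males. In whole gonads, fewer cells of a type and less RNA per cell cannot be told apart.

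Between E12.5 and E14.5, the mitotic kinase Plk1, the anaphase activator Cdc20, cyclin F and the licensing genes Mcm2, Mcm4, Mcm7 and Cdc6 fell in female gonads, by 0.47 to 0.79 on the log2 scale, and the checkpoint kinase Bub1 rose by 0.76. The question was how the division machinery changed as the ovary developed. Of the 49 fitted members, 16 were lower and 4 higher at adjusted p under 0.05. Among the 4, Cdkn2a was fitted only because of its E14.5 arrays and could not have come out lower. The lower calls made up 32.7% of the members against 14.6% of all fitted probe sets, the higher calls 8.16% against 8.41%, and all calls 40.8% against 23.1%. The median stage effect was -0.17 over the members and -0.02 over all fitted probe sets. In 33 of the 49 members both the WT and the KO pair were negative, against 42.5% of all fitted probe sets, and in 5 members both were positive, against 30%. No member changed 2-fold in both pairs, which was rare over all fitted probe sets too (0.118% lower and 0.379% higher).

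**Figure D1:**
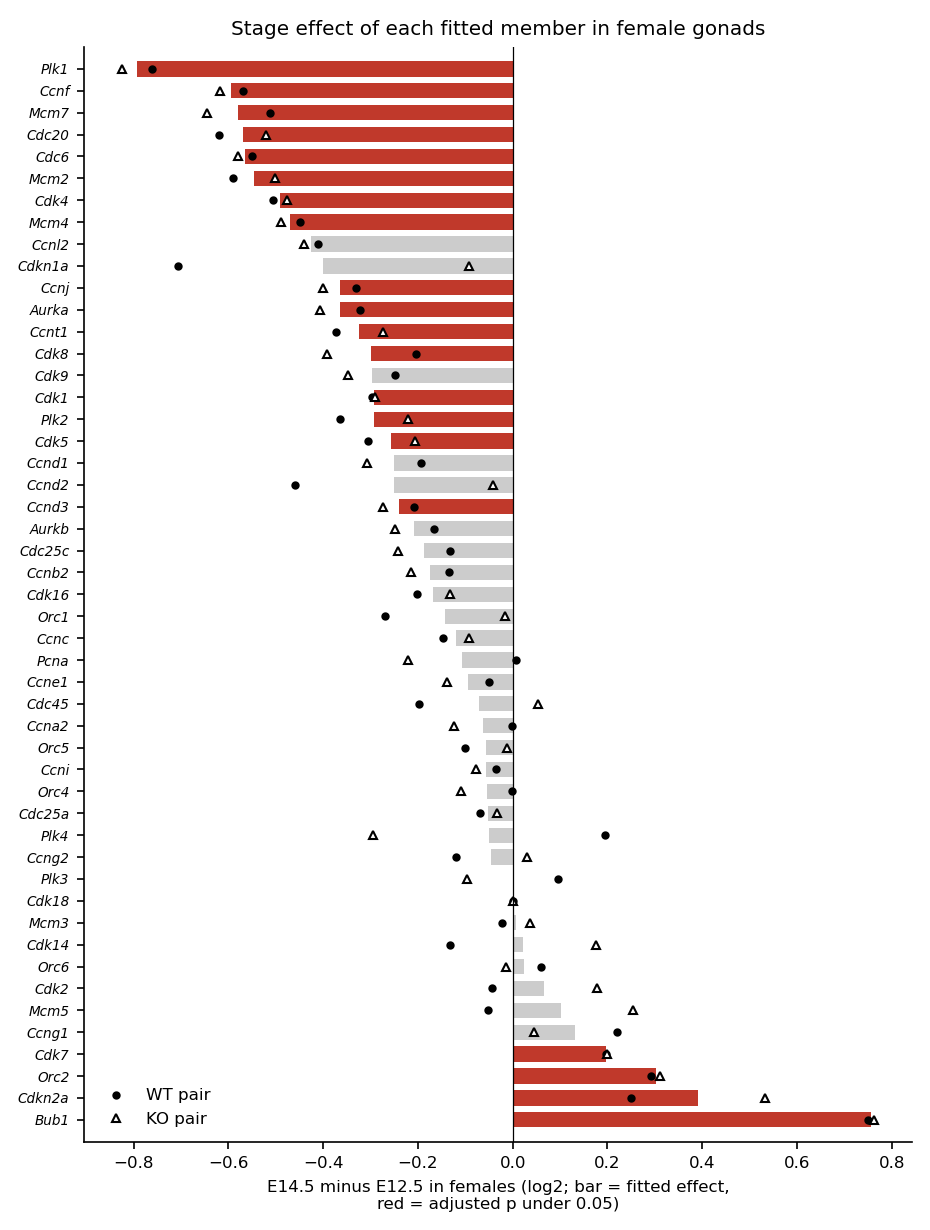
Stage effect of each of the 49 fitted members in female gonads (x axis, E14.5 minus E12.5, log2). Bars are the fitted effects, red where adjusted p was under 0.05, and dots and triangles are the WT and KO pairs. Plk1 at -0.79 and Bub1 at 0.76 form the ends, and 33 members have both pairs below 0.

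Among the licensing and replication fork genes, 4 of 13 fitted fell and 1 rose. Mcm7, a subunit of the replicative helicase, read 10.64 and 10.66 at E12.5 and 10.12 and 10.01 at E14.5 in females, a change of -0.58 ± 0.06 (SE, adjusted p = 0.0107). Both E14.5 values lay below both E12.5 values. Mcm2, another helicase subunit, went from 9.89 and 9.83 to 9.30 and 9.33 (-0.55 ± 0.06, adjusted p = 0.011). Mcm4 went from 10.23 and 10.17 to 9.78 and 9.68 (-0.47 ± 0.05, adjusted p = 0.012). Cdc6, the loader of the helicase, went from 8.83 and 8.91 to 8.28 and 8.33 (-0.57 ± 0.09, adjusted p = 0.0183). For these 3 genes too the stages did not overlap, which was read from the same arrays as the calls and is no separate support. How often this holds over all fitted probe sets was not counted. The other helicase subunits with a fit gave Mcm3 at 0.01 ± 0.06 and Mcm5 at 0.10 ± 0.09, neither called. Orc2, a subunit of the origin recognition complex, rose from 7.39 and 7.40 to 7.69 and 7.71 (0.30 ± 0.07, adjusted p = 0.0401). Centring shifted the E12.5 female arrays by -0.17 and -0.20 and the E14.5 ones by 0.09 and 0.04, which makes up most of this rise. The remaining members of the complex, Orc1, Orc4, Orc5 and Orc6, lay between -0.14 and 0.02 and were not called. Cdc45, which joins the helicase at the fork, was at -0.07 ± 0.08, and Pcna, the sliding clamp of the DNA polymerases, at -0.11 ± 0.11.

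Among the mitotic kinases and checkpoint genes, 4 of 10 fell and 1 rose. Plk1, which drives entry into mitosis and spindle assembly, read 9.96 and 9.97 at E12.5 and 9.20 and 9.14 at E14.5 (-0.79 ± 0.05, adjusted p = 0.00869), a 1.73-fold fall. Cdc20, which activates the anaphase-promoting complex, went from 11.34 and 11.32 to 10.72 and 10.80 (-0.57 ± 0.05, adjusted p = 0.0104). Aurka, the spindle pole kinase, went from 8.70 and 8.66 to 8.37 and 8.26 (-0.37 ± 0.06, adjusted p = 0.0227). The stages of each of these genes did not overlap, again on the arrays behind the calls. Plk2 fell by 0.29 on the log2 scale (SE 0.07, adjusted p = 0.0447). Bub1, a kinase of the spindle checkpoint, moved the other way: it read 8.69 and 8.68 at E12.5 and 9.44 and 9.45 at E14.5 (0.76 ± 0.06, adjusted p = 0.00883), and the WT and KO pairs differed by 0.75 and 0.76. Not called were Aurkb (-0.21 ± 0.06, adjusted p = 0.0713), Cdc25c (-0.19 ± 0.08) and Cdc25a (-0.05 ± 0.05), the latter pair being phosphatases that switch CDKs on. Plk4, which starts centriole duplication, went from 9.62 and 9.61 to 9.81 and 9.32, so its WT and KO pairs had opposite signs.

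Among the cyclins in females, 1 of 4 fitted G1 cyclins, 1 of 3 S and M phase cyclins and 2 of 7 other cyclins were lower, and none was higher. Of the 4 CDKs of the cell cycle 2 were lower and 1 was higher, and of the 6 other CDKs 2 were lower. Cyclin F (Ccnf), a subunit of a ubiquitin ligase, went from 9.42 and 9.46 to 8.85 and 8.84 (-0.59 ± 0.06, adjusted p = 0.0104). Among the other S and M phase cyclins, Ccna2 was at -0.06 ± 0.08 and Ccnb2 at -0.17 ± 0.05, neither called. Of the G1 cyclins only Ccnd3 passed, at -0.24 ± 0.06 (adjusted p = 0.046), while Ccnd1 (-0.25 ± 0.07), Ccnd2 (-0.25 ± 0.13) and Ccne1 (-0.09 ± 0.07) did not. Cdk4, the partner of the D cyclins, read 12.41 and 12.30 at E12.5 and 11.91 and 11.82 at E14.5 (-0.49 ± 0.06, adjusted p = 0.0141). Cdk1, the mitotic CDK, went from 10.72 and 10.67 to 10.42 and 10.38 (-0.29 ± 0.05, adjusted p = 0.0211), while Cdk2 was not called (0.07 ± 0.08). Cdk7, the kinase that activates other CDKs, went from 7.56 on both arrays to 7.76 on both (0.20 ± 0.04, adjusted p = 0.036), but was at -0.05 and not called in values left as deposited. Lower too were Ccnj, Ccnt1, Cdk8 and Cdk5, at -0.37, -0.32, -0.30 and -0.26. Of these, cyclin T1 (Ccnt1) and Cdk8 belong to the machinery of transcription rather than of cell division.

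Of the inhibitors, Cdkn2a, which encodes p16Ink4a and p19Arf, was under the floor on all E12.5 arrays and read 7.24 and 7.52 in E14.5 females, a rise of at least 0.25 in the WT pair and at least 0.53 in the KO pair (fitted 0.39 ± 0.08, adjusted p = 0.0292). Only E14.5 arrays brought Cdkn2a into the fit, so a fall could not have shown. Cdkn1a (p21) read 9.66 and 9.15 at E12.5 and 8.96 and 9.05 at E14.5, with pair differences of -0.71 and -0.09, and was not called (-0.40 ± 0.18).

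The female calls rested on the full set of arrays. With any 1 of the 8 arrays left out, or both E14.5 males, limma called no member and no other probe set in this comparison. Leaving the values uncentred gave 2 higher and 39 lower members in place of 4 and 16, with a median over all probe sets of -0.27, and fitting all probe sets without the filter on low values left 0 higher and 1 lower. Markers of other processes moved with this comparison. All 5 fitted meiosis genes of the marker lists rose in females. The summed level of the 7 with a probe set went from 9.03 and 9.02 to 10.76 and 10.96. Only 1 of the 7 was above the floor on each E12.5 array. The other fitted ones passed the filter through E14.5 arrays alone, so a fall could not have shown. Of 13 fitted Sertoli cell markers 2 were called lower and none higher. Sertoli cell markers summed to 12.51 on the WT E14.5 female array against 11.98 on the KO array of that stage and at most 12.08 at E12.5. Leydig cell markers summed to 12.99 on that WT array, 12.30 on the KO array and at most 12.29 at E12.5. No fitted Leydig gene was called. Smooth muscle and myoid markers summed to 11.31 and 11.49 at E12.5 and 12.02 and 11.97 at E14.5, with 1 of 8 called higher and none lower. Erythroid markers summed to 15.12 and 15.07 and then 14.97 and 14.68, with 4 of 9 higher and 3 lower. Of 12 fitted mesonephros and duct genes 4 were lower and none higher, of 12 germ cell genes 3 were higher and 4 lower, and of 11 macrophage genes 3 were higher and 1 lower. The part of these markers in the members' changes was not tested.

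**Figure D2:**
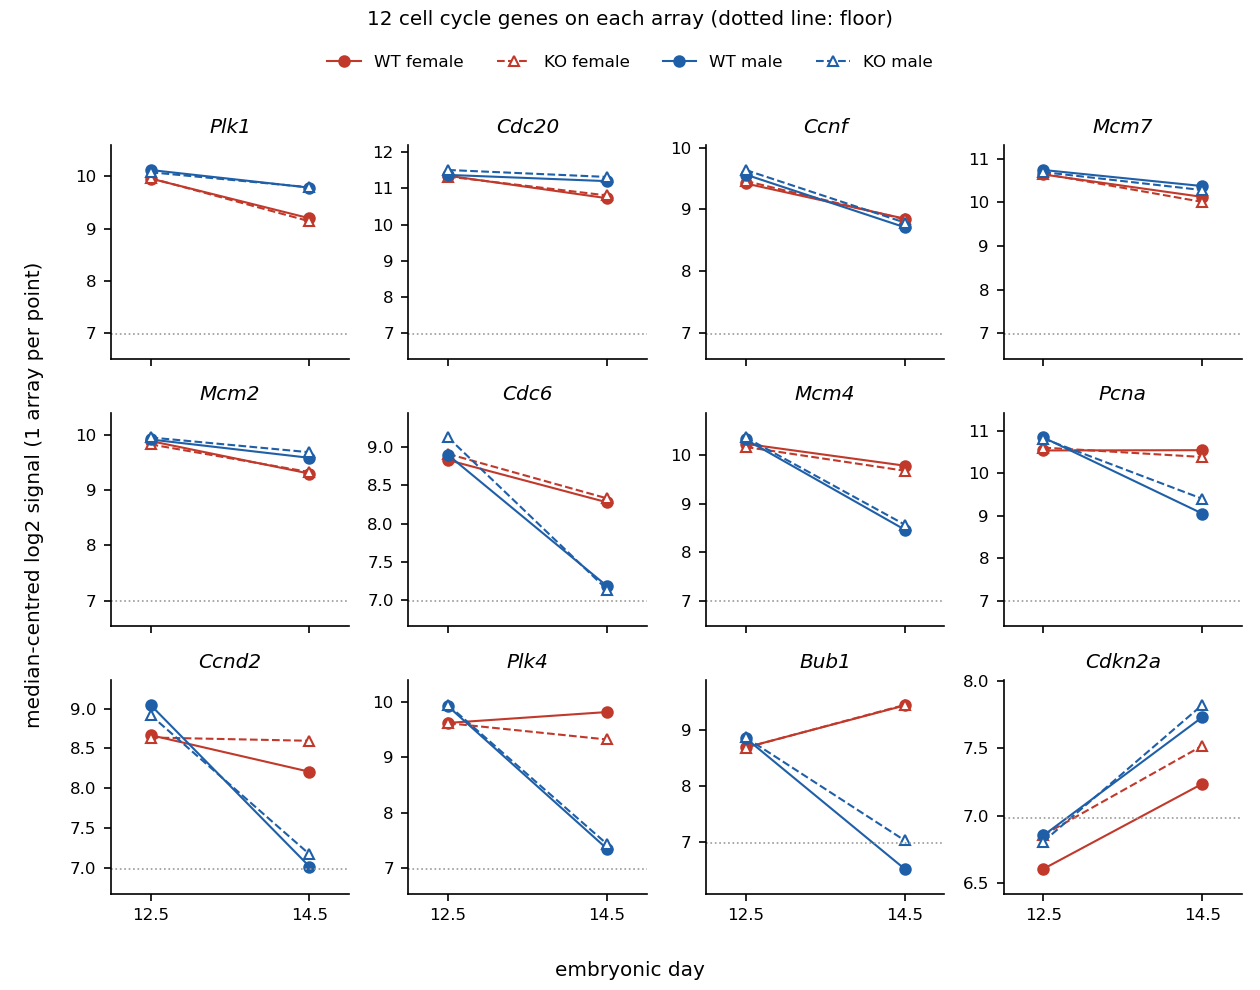
Levels of 12 members on each of the 8 arrays (y axis, median-centred log2 signal before the floor; x axis, embryonic day). Red is female and blue male, filled circles are WT and open triangles KO, and the dotted line is the floor of 6.99. Plk1, Cdc20, Ccnf, Mcm7 and Mcm2 are lower at E14.5 in each of the 4 pairs of arrays that share sex and genotype, while Bub1 is higher in females and near or under the floor in males.

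In male gonads the falls were larger and reached other genes: Plk4, cyclin L2, cyclin D2, Bub1, Cdc6, Mcm4, Cdk8 and Pcna changed by -1.60 to -2.54 on the log2 scale, while Cdkn2a rose by 0.79. Of the 49 fitted members 34 were lower and 5 higher at E14.5. Among the 5, Cdkn2a and Cdk18 were fitted only because of E14.5 arrays and could not have come out lower. In all, 79.6% of the members were called, close to the 77.8% of all fitted probe sets, so that being called says little here. The lower calls alone were 69.4% of the members against 39.9% of all fitted probe sets, and the higher calls 10.2% against 38%. The median stage effect was -0.46 over the members and -0.003 over all. Both pairs were at least 2-fold lower in 10 members (20.4%), against 11.8% of all fitted probe sets, and at least 2-fold higher in 0, against 5.82%. The 10 were Plk4, Ccnl2, Ccnd2, Bub1, Cdc6, Mcm4, Cdk8, Pcna, Mcm3 and Orc4. The split moved with the scaling, to 10 higher and 27 lower after quantile normalization and to 0 higher and 45 lower in uncentred values, where the median over all probe sets was -0.69. Markers of other cells moved in males too: 6 of 10 fitted Leydig genes were higher and none lower, with a summed level of 12.42 and 12.65 at E12.5 and 13.78 and 13.29 at E14.5. Of 8 smooth muscle and myoid genes 6 were higher and 1 lower (11.34 and 11.46, then 12.14 and 11.77), and of 11 macrophage genes 8 were higher and 2 lower (11.32 and 11.46, then 11.80 and 11.73). Of 12 germ cell genes 3 were higher and 5 lower (12.47 and 12.40, then 12.12 and 12.01). Of 9 erythroid genes 4 were lower and 1 higher (15.76 and 15.71, then 14.76 and 15.01), and of 10 endothelial genes 4 were lower and 2 higher (12.34 and 12.51, then 12.11 and 12.17). Sertoli genes (3 higher and 5 lower of 13), pregranulosa genes (2 and 3 of 10) and mesonephros and duct genes (5 and 4 of 12) were called both ways. Their part in the members' changes was not tested.

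Of the licensing and fork genes in males, 10 of 13 fitted were lower and none was higher. Cdc6 read 8.90 and 9.13 at E12.5 and 7.19 and 7.14 at E14.5 (-1.85 ± 0.09, adjusted p = 8.23e-05). Mcm4 went from 10.32 and 10.36 to 8.47 and 8.57 (-1.83 ± 0.05, adjusted p = 6.56e-05), and Mcm3 from 10.16 and 10.12 to 8.89 and 8.76 (-1.32 ± 0.06, adjusted p = 7.58e-05). The gap between the stages was many times the gap between the WT and KO arrays in each case. Pcna went from 10.84 and 10.81 to 9.05 and 9.40 (-1.60 ± 0.11, adjusted p = 0.000189), with a wider gap between the E14.5 arrays. Mcm7 was at -0.39 ± 0.06 and Mcm2 at -0.30 ± 0.06, both called. Mcm5 was not called by its brightest probe set (-0.24 ± 0.09), and its other set was called in the opposite direction. Orc4 went from 8.18 and 8.25 to below the floor, a fall of at least 1.20 in the WT pair and at least 1.27 in the KO pair. Orc5, Orc6 and Cdc45 fell by 0.79, 0.72 and 0.46 on the log2 scale, and Orc1 and Orc2 were not called.

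The mitotic group split. Plk4 read 9.91 and 9.94 at E12.5 and 7.35 and 7.43 at E14.5 in males (-2.54 ± 0.13, adjusted p = 8.8e-05), a 5.80-fold fall, whereas Plk1 went from 10.12 and 10.08 to 9.79 on both arrays (-0.31 ± 0.05). Bub1 fell from 8.85 and 8.87 to 6.52 and 7.03, the WT value being under the floor, so the WT difference of -1.87 is a bound, beside -1.84 in the KO pair. Plk2 (-1.01 ± 0.07) and Aurka (-0.78 ± 0.06) fell by more than Cdc25c (-0.28 ± 0.08) and Cdc20 (-0.18 ± 0.05), both called as well. Cdc25a (0.10 ± 0.05) and Aurkb (-0.01 ± 0.06) were not called. Plk3, a stress-responsive Polo-like kinase, read 11.93 and 11.82 at E12.5 and 12.48 and 12.41 at E14.5, higher by 0.57 ± 0.07 but lower by 0.21 in uncentred values.

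Among the cyclins in males, cyclin D2 (Ccnd2) went from 9.05 and 8.92 to 7.02 and 7.17 (-1.89 ± 0.13, adjusted p = 0.000185), just above the floor. Ccnd1 fell by 0.93 and Ccnd3 by 0.27 on the log2 scale. Cyclin E1 (Ccne1), which drives entry into S phase with Cdk2, read 8.89 and 8.94 at E12.5 and 9.64 and 9.57 at E14.5, higher by 0.69 ± 0.07 (adjusted p = 0.000479), but at -0.09 and not called in uncentred values. The cyclins of S and M phases all passed, with Ccna2 at -0.93 ± 0.08, Ccnf at -0.85 ± 0.06 and Ccnb2 at -0.25 ± 0.05. Cyclin L2 (Ccnl2), linked to RNA splicing, went from 10.26 and 10.58 to 8.12 and 8.01 (-2.35 ± 0.11, adjusted p = 8.42e-05). Cyclin T1, the partner of Cdk9 in transcription, went from 8.62 and 8.61 to 9.10 and 9.0, higher by 0.43 ± 0.07 but lower by 0.35 in uncentred values. Ccnc, Ccng2, Ccni and Ccnj were lower, and Ccng1 was under the floor on all 4 male arrays.

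Of the 4 CDKs of the cell cycle itself 2 were lower in males and none was higher. Cdk1 was at -0.15 ± 0.05 (adjusted p = 0.0424), while Cdk2 (0.13 ± 0.08) and Cdk4 (-0.04 ± 0.06) were not called, though the other Cdk4 probe set was, at -0.67, and Cdk7 fell under the floor, by at least 0.48 in the WT pair and at least 0.52 in the KO pair. Cdk8, the kinase of the Mediator complex, changed most by fitted effect, from 9.62 and 9.67 to 7.97 on both arrays (-1.68 ± 0.07, adjusted p = 7.56e-05). Cdk9, Cdk16 and Cdk14 were lower at -0.81, -0.57 and -0.33, and Cdk5 was not called (0.01 ± 0.06). Cdk14 went from 7.35 and 7.29 to under the floor, so its fall is a lower bound and its size cannot be ranked. Cdk18 rose from under the floor to 7.32 and 7.36, by at least 0.33 in the WT pair and at least 0.38 in the KO pair, but was lower by 0.28 in uncentred values. On the centred scale only these E14.5 arrays brought Cdk18 into the fit, so a fall could not have shown. Of the inhibitors, Cdkn2a rose from under the floor to 7.73 and 7.82, by at least 0.74 and at least 0.83, again the only direction open to it. Cdkn1a, at 8.93 and 8.82 and then 9.07 and 9.42, was not called by its brightest probe set (0.37 ± 0.18), while its other set was called higher at 0.54 (adjusted p = 0.013).

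**Figure D3:**
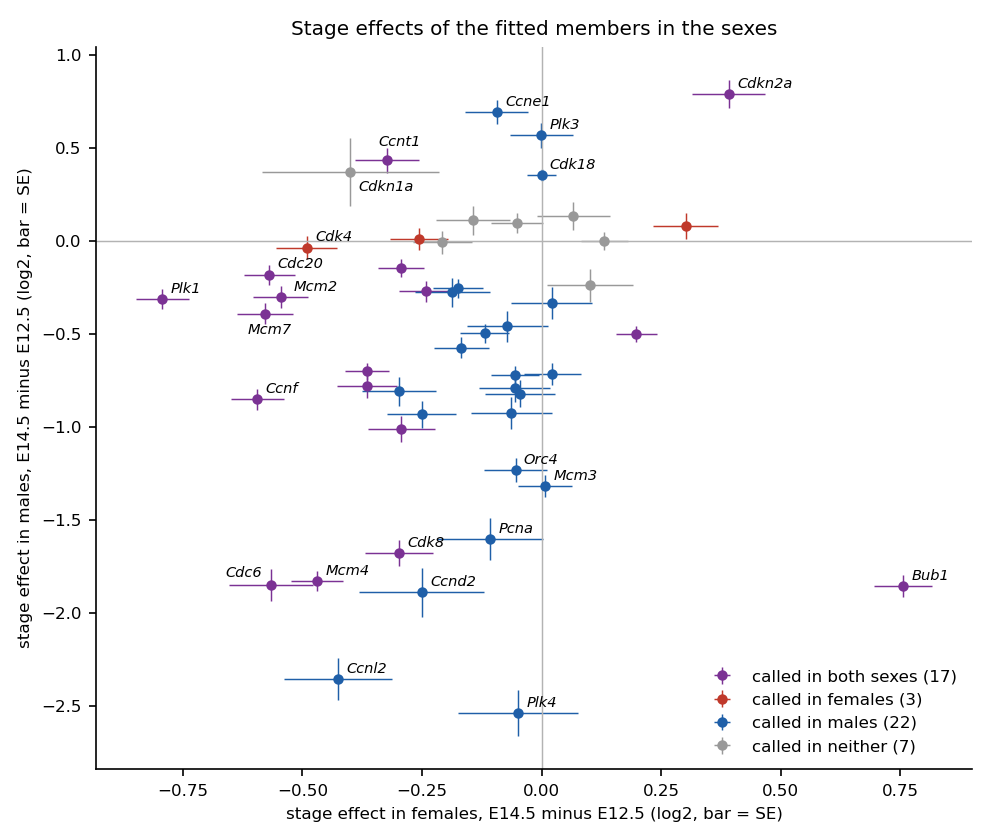
Stage effects of the 49 fitted members in females (x axis) and males (y axis), both E14.5 minus E12.5 in log2, with bars for the SE. Colours mark the members called in both sexes (17), in females (3), in males (22) or in neither (7). Bub1 sits alone at the lower right, at 0.76 in females and -1.85 in males.

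Set side by side, 13 members were lower in both sexes: Plk1, Ccnf, Mcm7, Cdc20, Cdc6, Mcm2, Mcm4, Ccnj, Aurka, Cdk8, Cdk1, Plk2 and Ccnd3. Cdkn2a was higher in both, the only direction open to a gene under the floor on all E12.5 arrays. Over all fitted probe sets, 14.6% were called lower and 8.41% higher in females, and 39.9% and 38% in males. The share called in both sexes was not computed, so these joint counts have no baseline. Cdk7 and Bub1 were called higher in females and lower in males, and Ccnt1 lower in females and higher in males, where uncentred values turn the sign of Cdk7 in females and of Ccnt1 in males. The difference of the stage effects, males minus females, was itself tested. It passed in 26 members toward a more negative effect in males and in 11 toward a more positive one, together 75.5% of the members against 69% of all fitted probe sets. The negative share was 53.1% of the members against 33.8% of all, and the positive share 22.4% against 35.2%. In uncentred values the split was 38 and 0, with a median over all probe sets of -0.41.

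The difference was widest for Bub1, at -2.61 ± 0.09 (adjusted p = 0.000378), a gene measured against the floor on the WT E14.5 male array. Plk4 (-2.49 ± 0.18), Ccnl2 (-1.93 ± 0.16), Ccnd2 (-1.64 ± 0.18), Pcna (-1.49 ± 0.16), Cdk8 (-1.38 ± 0.10), Mcm4 (-1.36 ± 0.08) and Mcm3 (-1.32 ± 0.08) followed. In females Pcna was at -0.11 and Mcm3 at 0.01, but the other Mcm3 probe set stood at -0.25 in females and -0.39 in males, much closer together. On the other side, Ccne1 (0.79 ± 0.09), Cdkn1a (0.77 ± 0.26), Ccnt1 (0.76 ± 0.09) and Plk3 (0.57 ± 0.09) were more positive in males. In uncentred values none of them was called higher. Plk1 (0.48 ± 0.08), Cdk4 (0.46 ± 0.09), Cdkn2a (0.40 ± 0.11) and Cdc20 (0.39 ± 0.08) passed in the same direction, but turned to -0.05, -0.07, -0.13 and -0.14 in uncentred values, where they were not called. The other Cdk4 probe set stood at -0.52 in females and -0.67 in males, more negative in males. The other Plk1 sets stood at -0.41 and -0.55 in females and -0.44 and -0.41 in males, closer together than the main set. For Mcm7, Cdk1, Ccnb2 and Ccnd3 the difference did not pass, at 0.19 ± 0.08, 0.15 ± 0.07, -0.08 ± 0.07 and -0.03 ± 0.08.

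At E12.5, males and females differed little in these genes. Male gonads had more Cdc25a, Aurka and Cdk1 RNA and less Cdk14, Cdc25c, Orc4 and Cdk4. These 3 higher and 4 lower members were 14.3% of those fitted, near the 16.3% of all fitted probe sets, of which 7.79% were higher and 8.51% lower. Both pairs were positive in 24 members, against 32% of all fitted probe sets. Cdc25a read 9.14 and 9.04 in females and 9.46 and 9.49 in males, a difference of 0.39 ± 0.05 (adjusted p = 0.0256). Aurka read 8.70 and 8.66 in females and 8.99 and 9.06 in males (0.34 ± 0.06, adjusted p = 0.0341), and Cdk1 differed by 0.24 in the WT and 0.33 in the KO pair (0.29 ± 0.05, adjusted p = 0.0314). The sexes did not overlap for these 3 genes, again on the arrays behind the calls. Plk4 and Ccnd2 were at 0.31 ± 0.13 and 0.33 ± 0.13 and did not pass. Among those lower in males, Cdk14 read 8.08 and 7.70 in females and 7.35 and 7.29 in males (-0.57 ± 0.08, adjusted p = 0.0259). Cdc25c was at -0.39 ± 0.08 (adjusted p = 0.0398), Orc4 at -0.30 ± 0.07 (adjusted p = 0.0454) and Cdk4 at -0.30 ± 0.06 (adjusted p = 0.0451). The other Cdk4 probe set was called too, at -0.54, whereas that of Cdc25c stood at 0.14 and was not.

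These calls were fragile. In limma, leaving out any 1 array or both E14.5 males left no call in this comparison, as did fitting all probe sets without the filter for the members. Uncentred values gave 24 higher and 1 lower, with a median over all probe sets of 0.12. Erythroid markers moved with sex as well: 4 of the 9 fitted were higher in E12.5 males, and their summed level was 15.76 and 15.71 in males against 15.12 and 15.07 in females. Sertoli markers summed to 13.07 and 13.05 in E12.5 males against at most 12.08 in females, with 6 of 13 fitted called higher and 1 lower. The part of these cells in the sex differences was not tested.

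Loss of Wnt4 left no called change in the division machinery. With limma no member, and no other fitted probe set, passed for KO against WT in females, in males or over both sexes (0% called in each). Wnt4 itself did not pass this limma test in females (-1.37 ± 0.20, adjusted p = 0.433). The absence of calls therefore cannot show that the members were unchanged. At an unadjusted p under 0.05 there were 3 members of 962 probe sets in females, 2 of 405 in males and 1 of 487 over both. The median KO effect was -0.05 in females and 0.04 in males, against -0.02 and 0.01 over all fitted probe sets. In females both pairs were negative in 20 of the 49 members and positive in 2, against 37.6% and 19.9% of all fitted probe sets. In males both were positive in 20 members, against 25.7% of all. The median SE was 0.07. No member differed 2-fold between KO and WT in any pair, the largest pair difference being 0.52 in females and 0.35 in males. Over all fitted probe sets, 0.0355% were at least 2-fold lower in both female pairs and 0% at least 2-fold higher. In both male pairs the shares were 0% in either direction. These shares need both pairs of a sex, and the share over all probe sets in a single pair was not counted.

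**Figure D4:**
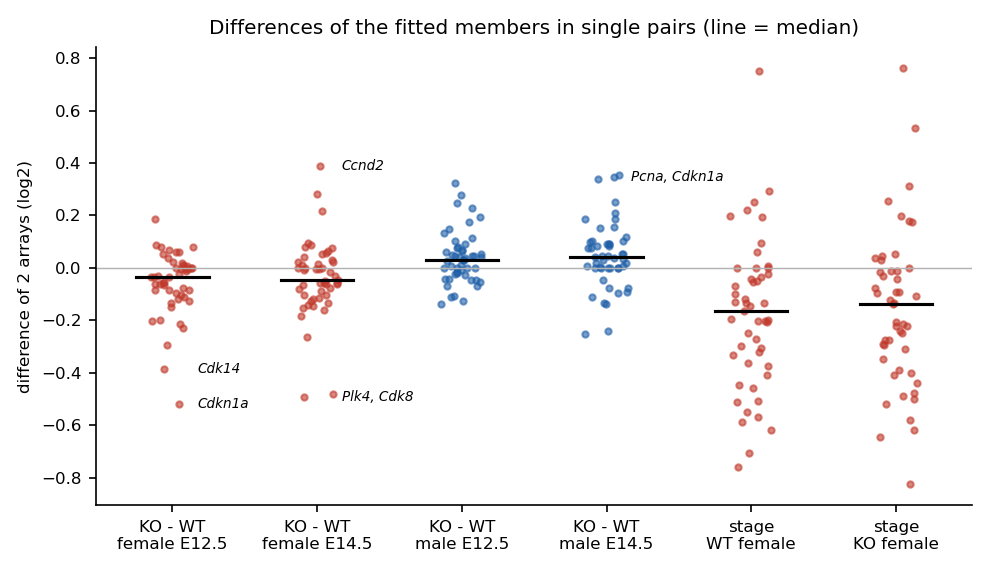
Differences of the 49 fitted members in single pairs of arrays (y axis, log2, after the floor), with KO minus WT in the 4 columns on the left and E14.5 minus E12.5 in the 2 female columns on the right. Points are members and black lines are medians. KO medians lie between -0.05 and 0.04 and the stage medians at -0.17 and -0.14.

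The largest KO effect in females was that of Cdk8, which read 9.57 in WT and 9.28 in KO at E12.5 and 9.37 and 8.89 at E14.5 (-0.39 ± 0.07, adjusted p = 0.433). It was lower in both female pairs and did not pass the adjustment. Ccnd1, the D cyclin often tied to Wnt signalling, went from 9.55 to 9.40 and from 9.36 to 9.09 (-0.21 ± 0.07, adjusted p = 0.436). Orc5 (-0.17 ± 0.07) and Cdk5 (-0.15 ± 0.06) were also lower in both female pairs, and Cdc6 and Orc2 were higher in both by at most 0.08. Cdk14 was at -0.23 ± 0.08, mostly from the E12.5 pair. In males the largest effect was that of Cdk5, which read 9.14 in WT and 9.42 in KO at E12.5 and 9.12 and 9.46 at E14.5 (0.31 ± 0.06, adjusted p = 0.794), opposite in sign to females. Among the others higher in both male pairs were Ccnc (0.17 ± 0.05), Cdc20 (0.13 ± 0.05) and Orc6 (0.13 ± 0.06), none passing. Cdc25c (-0.15 ± 0.08), Plk3, Mcm7, Mcm3 and Ccnt1 were the 5 members lower in both male pairs, none passing. Only Mcm3 was lower in KO in all 4 pairs, by a mean of -0.09 ± 0.04 (adjusted p = 0.891).

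Genes with more than 1 fitted probe set show how far a value depends on the probe set. There were 8 such members, and the median gap between the probe sets of a gene was 0.19 for the female and 0.61 for the male stage effect, against 0.18 and 0.68 over 1085 genes. Plk1 had 3 fitted probe sets, all called lower in females (-0.79, -0.41 and -0.55) and in males (-0.31, -0.44 and -0.41), and the effects of the sexes lay apart mainly in the set that stood for the gene. Both Cdk4 probe sets were called lower in females (-0.49 and -0.52), but in males the other set was called at -0.67 while the main set stood at -0.04. The 2 Mcm5 sets stood at -0.24 and 1.27 in males, a gap of 1.51, so no male direction is given for Mcm5. Ccnd1 was called in males by its main set at -0.93 and not by the other at 0.07. Mcm3 was lower in males by both sets (-1.32 and -0.39), and stood at 0.01 and -0.25 in females, neither called. The other Cdkn1a set had KO effects in females of -0.51 (adjusted p = 0.433) against -0.21 in the main set.

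**Figure D5:**
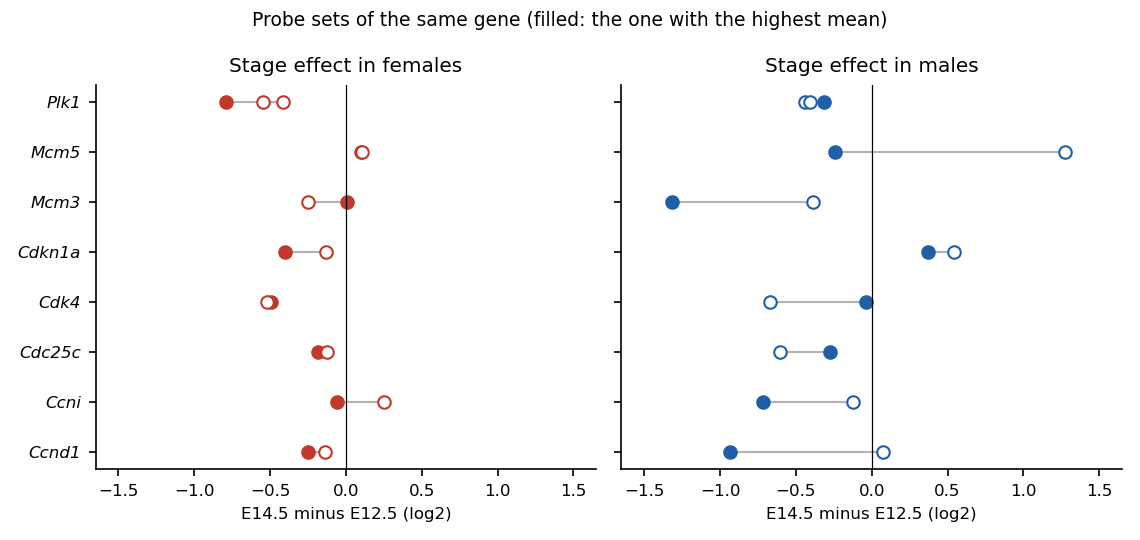
Stage effects (x axis, E14.5 minus E12.5, log2) of the probe sets of the 8 members with more than 1 fitted set, in females (left) and males (right). Filled circles are the set that stood for the gene and open circles the others. The largest gap is that of Mcm5 in males, 1.51.

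Other genes of the same pathways were read from lists. In females, 8 of 33 fitted DNA replication enzymes were lower and 1 was higher, with a list median of -0.06. Rrm2, a subunit of ribonucleotide reductase, was at -0.56 ± 0.07 and Rfc5, of the clamp loader, at -0.52 ± 0.06, while Lig1, the replicative ligase, was at 0.28 ± 0.06. Of 38 spindle and chromosome genes 7 were lower and none higher (median -0.07), among them the separase inhibitor Pttg1 (-0.61 ± 0.08) and the kinesin Kif2c (-0.47 ± 0.06). Of 8 fitted genes of the E2F and RB axis, E2f5 (-0.57 ± 0.08), E2f8 (-0.42 ± 0.09) and Mybl2 (-0.38 ± 0.08) were lower. Beside these stand 14.6% called lower, 8.41% called higher and a median of -0.02 over all fitted probe sets, so the share of lower calls in the spindle list is near that of all probe sets.

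Further inhibitors and brakes of the cycle went both ways in females, with 2 of 11 higher and 2 lower. Cdkn2c, which encodes the Cdk4 inhibitor p18, was under the floor at E12.5 and read 7.58 and 7.66 in E14.5 females (fitted 0.63 ± 0.05, adjusted p = 0.00869), a rise of at least 0.59 in the WT pair and at least 0.67 in the KO pair. Only E14.5 arrays brought Cdkn2c into the fit, so a fall could not have shown in either sex. Cdkn3, a phosphatase that acts on CDKs, was at 0.53 ± 0.08. Gadd45g, a stress-response gene, went from 9.22 and 9.30 to 7.91 and 8.15 (-1.23 ± 0.07, adjusted p = 0.00786), and Cdkn1c (p57) was at -0.34 ± 0.06. In males, 19 of 33 replication enzymes were lower and 6 higher, 29 of 38 spindle genes lower and 3 higher, and 6 of 8 E2F axis genes lower and 1 higher, where 39.9% of all fitted probe sets were lower and 38% higher. Smc2, a condensin subunit, was the lowest of the spindle list at -2.85 ± 0.10. Cdkn2c rose there too, to 8.07 and 8.02 (fitted 1.06 ± 0.05, adjusted p = 7.62e-05), by at least 1.08 in the WT pair and at least 1.03 in the KO pair. At E12.5, Tfdp1, the partner of the E2F proteins, was higher in males by 0.56 ± 0.05 (adjusted p = 0.0214). No gene of these lists was called for KO against WT.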

How the data were processed

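Each sample was 1 Affymetrix MG_U74Av2 array. The authors deposited log2 signals made with MAS5, per the submitters' processing notes; the sources used here give neither version nor scaling. The log2 unit was read from the deposited values, and 14 cells of the KO male E12.5 array that held date serial numbers, of no member gene, were set to missing; because of them that deposited column as a whole is a mixed score and was read as log2 in its other cells. Arrays were centred on the mean of their medians, floored at the 40th percentile (6.99), and kept where above it on at least 2 arrays. Of 12488 probe sets, 66 controls were left out and 8452 fitted. By GEO's platform annotation 10833 probe sets had 1 gene symbol, 396 more than 1 and 1193 no symbol.

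limma 3.58.1 in R 4.3.3 was fitted to all 8 arrays with sex by genotype and sex by stage terms, an intensity trend and two-sided Benjamini-Hochberg adjustment at 0.05. The 2 residual degrees of freedom come from genotype by stage within each sex, with 2.77 prior degrees of freedom, so p-values measure the spread between these arrays, not between embryos. The number of arrays limits the precision. The fit was tested on simulated data.

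The members and lists were chosen with earlier results of these data known. Named members were, per comparison, up to 8 passing ones a direction by size with pairs of 1 sign, or up to 4 by the smaller pair difference where under 4 passed, plus genes fixed by role; other lists gave up to 4 a comparison by the same rule. Alternatives changed the floor, the filter, the centring, the normalization, the trend, the probe set rule, the arrays and the model.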

Additional observations from a re-analysis of the deposited data

Results flagged for a closer look

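The stage effect differed between the sexes by a test of the difference itself in 26 members toward a more negative and in 11 toward a more positive effect in males, against 33.8% and 35.2% of all fitted probe sets. The values, males minus females, were -2.61 for Bub1, -2.49 for Plk4, -1.93 for Ccnl2, -1.64 for Ccnd2, -1.49 for Pcna, -1.38 for Cdk8, -1.36 for Mcm4 and -1.32 for Mcm3, whose other probe set had stage effects of -0.25 in females and -0.39 in males. They were 0.79 for Ccne1, 0.77 for Cdkn1a, 0.76 for Ccnt1 and 0.57 for Plk3. For Plk1, Cdk4, Cdkn2a and Cdc20 they were 0.48, 0.46, 0.40 and 0.39. These last 4 turned negative in uncentred values, and no member was called higher there. The other Cdk4 set had stage effects of -0.52 in females and -0.67 in males, more negative in males. The other Plk1 sets had -0.41 and -0.55 in females and -0.44 and -0.41 in males. All of these differences between the sexes rest on the 2 E14.5 male arrays, whose own properties cannot be told apart from the stage in males.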

How the results depend on the processing

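With values as deposited, the signs turned for Cdk7 in females (-0.054), for Ccne1 (-0.088), Ccnt1 (-0.35), Cdk18 (-0.28) and Plk3 (-0.21) in males, and for Cdc20 (-0.14), Cdk4 (-0.071), Cdkn2a (-0.13) and Plk1 (-0.048) in males minus females. The members called higher and lower were then 2 and 39 for the female stage effect, 0 and 45 for the male, 0 and 38 for males minus females, and 24 and 1 for the sex difference at E12.5. Without the filter they were 0 and 1 for the female stage effect and 0 and 0 for the sex difference. A floor at the 60th percentile left 1 higher in females, 3 in males and 7 in males minus females, quantile normalization gave 10 higher in males, and the mean of a gene's probe sets gave 8 higher in males and 2 lower for the sex difference. Without both E14.5 male arrays, the female stage effect and the sex difference had 0 calls, and leaving out 1 array in turn gave 0 to 0 for both. Under the latter the male stage effect had 2 to 5 higher and 25 to 32 lower, and males minus females 5 to 8 higher and 18 to 23 lower. KO against WT had 0 members called in every alternative run, and with genotype fitted within stages 7 probe sets, none a member, were called at E12.5 and 0 at E14.5. No paired analysis was possible because each group holds 1 array and all arrays carry the number 1, so there is no replicate number to pair by. The WT and KO pairs of a sex are already the basis of the fit. The causes of these shifts were not tested.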

Other observations

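Males and females at E14.5 were not compared by a test. In the pairs of arrays, the median male minus female difference over the 49 fitted members was -0.30 in WT and -0.22 in KO, against 0.00 and 0.01 over all fitted probe sets, and 32 and 30 members were negative. The members without a test were all under the floor: Ccne2, the other E cyclin, ranged from 3.59 to 5.73, and Cdkn1b (p27) from 5.28 to 6.18. At this signal no order of these values can be read.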
